A study of Mus musculus with 4 samples.

Results

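The genes described here are 35 members of the unfolded protein response (UPR) and of the folding machinery of the endoplasmic reticulum (ER), out of 31053 genes in the count matrices. They were chosen by symbol from what their products are known to do, although earlier results of these data were known. All 35 symbols were present. By role they comprise 15 folding genes, 4 genes of the stress sensors and of the factor Xbp1, 8 genes of ER-associated degradation, 5 genes of the ATF4 branch and 3 genes of protein translocation. They were measured by droplet single-cell RNA sequencing (10x Genomics 3′ v3) of the stromal vascular fraction, the cells left once mature adipocytes are removed from digested fat, of inguinal fat (the fourth depot, which also holds mammary gland) of C57BL/6 mice aged 8 weeks. The cold group was kept for 24 h at 4 °C (2 libraries), and the control group stayed at room temperature for the same time (2 libraries). No genetic change or drug is named for either group, and all libraries went through the same collagenase digestion. The sources used here do not give the room's temperature, the animals' sex or how many animals went into a library.

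The libraries held 3871 to 6339 cell barcodes and 35198164 to 55160902 UMIs (unique molecular identifiers, 1 per captured transcript), and 2971 to 5232 cells per library were kept. Any pair of libraries shared 5 to 10 barcodes. Cells were clustered, clusters were named from marker genes, and counts were summed per library and named class, so that the replicate was the library and not the cell. A total of 11 classes held at least 20 cells in every library and were tested. A level is given in CPM, the UMIs of a gene scaled to a fixed total of all UMIs of that class in that library. Values per library stand in the order cold replicate 1, cold replicate 2, room-temperature replicate 1, room-temperature replicate 2. "Rose" and "fell" are kept for genes with a Benjamini-Hochberg adjusted p under 0.05 in edgeR's quasi-likelihood test, adjusted over all genes tested in the class. The labels do not say that the libraries of a group came from separate animals, so the p-values measure only the spread between these libraries.

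Proteins bound for secretion enter the ER through the Sec61 channel and fold there with the help of chaperones, of which BiP (Hspa5) is the most studied, and of disulfide isomerases of the Pdia family. When unfolded protein builds up, the sensors ATF6, IRE1 (Ern1) and PERK (Eif2ak3) raise transcription of chaperones, IRE1 splices the Xbp1 message into its active form, and PERK slows translation while favouring synthesis of ATF4 and, through it, of Ddit3 (CHOP), Trib3 and Asns. Proteins that fail to fold are drawn back out and destroyed by the degradation arm, with Herpud1, Sel1l and the ligase Syvn1. Cells with a heavy secretory load, such as plasma cells and the collagen-making fibroblasts of fat, are known for high ER chaperone levels. Counts per gene do not resolve Xbp1 splicing, sensor cleavage or phosphorylation.

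Chaperone promoters carry the ER stress response element (ERSE), letters CCAAT, any 9 bases, then CCACG, bound by NF-Y and ATF6. RefSeq promoters of 300 bases (250 before the start to 50 after it, GRCm38.p6) were available for 30 of the 35 members and searched on both strands. The full ERSE was found in 9 members (Hspa5, Hsp90b1, Calr, Canx, Pdia6, Dnajc3, Creld2, Derl3 and Syvn1), against 0.119% of all 32851 promoters. The windows below are shown because they belong to Hspa5, to the called chaperones with a full ERSE and to Herpud1, which was higher in cold in some classes. Each is 5′ to 3′ on the gene's strand with the motif in capitals, and where the motif lies on the opposite strand its reverse complement is seen. For Hsp90b1 the sites begin 212 and 107 bases before the start (minus strand, chr10:86705618-86705676 and chr10:86705513-86705571, the second on the opposite strand).
Hsp90b1 distal: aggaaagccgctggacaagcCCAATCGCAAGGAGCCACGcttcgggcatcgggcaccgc
Hsp90b1 proximal: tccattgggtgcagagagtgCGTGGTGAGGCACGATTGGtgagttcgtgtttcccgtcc
The Calr site begins 162 bases before the start (minus strand, chr8:84847055-84847113, motif on the opposite strand), and that of Pdia6 begins 98 bases before it (plus strand, chr12:17266471-17266529).
Calr: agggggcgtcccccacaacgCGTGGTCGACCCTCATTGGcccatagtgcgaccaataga
Pdia6: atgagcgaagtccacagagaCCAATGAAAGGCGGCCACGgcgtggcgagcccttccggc
The Hspa5 site begins 65 bases before the RefSeq start (plus strand, chr2:34772020-34772048). GENCODE places an Hspa5 exon there.
Hspa5: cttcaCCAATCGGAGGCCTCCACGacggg
Herpud1 held no full ERSE. It held the second form, ERSE-II (ATTGG, any base, CCACG), which was searched for after the data had been seen and occurs in 0.0365% of all promoters. Dnajb11 was the other member with it.
Herpud1 ERSE-II: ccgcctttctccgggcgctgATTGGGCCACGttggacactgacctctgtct
Herpud1 also held the C/EBP-ATF element (TGATGNAA), to which ATF4 binds, as did Chac1, Trib3 and Asns. That element occurs in 3.97% of all promoters.
Herpud1 C/EBP-ATF: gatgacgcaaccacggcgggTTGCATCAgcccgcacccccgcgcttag
These 2 Herpud1 windows lie at chr8:94386357-94386407 and chr8:94386297-94386344 on the plus strand, with the latter motif on the opposite strand. The UPR element TGACGTGG was in 0 member promoters and in 0.676% of all. A match describes letters and was not tested as a binding site.

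Across the 11 classes, fibroblast-like cells (fibroblasts and adipose progenitors) had the highest mean level for 11 members, macrophage-like cells for 9 and B-like cells for 5. The folding genes (15) summed to 3027, 2678, 4330 and 4735 CPM in fibroblast-like cells and to 3287, 2808, 3806 and 4138 CPM in macrophage-like cells. In T-like cells they summed to 1685, 1887, 1752 and 1871 CPM, below every fibroblast-like and macrophage-like library. Hspa5 reached 680 ± 128 CPM in fibroblast-like cells and 629 ± 136 CPM in macrophage-like cells (SD, n = 4 libraries over both temperatures), which do not differ beyond their spread, and was lowest in hormone-sensing luminal-like cells at 274 CPM. The heat map of member levels shows that no single class was the highest for every role.

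**Figure D1:**
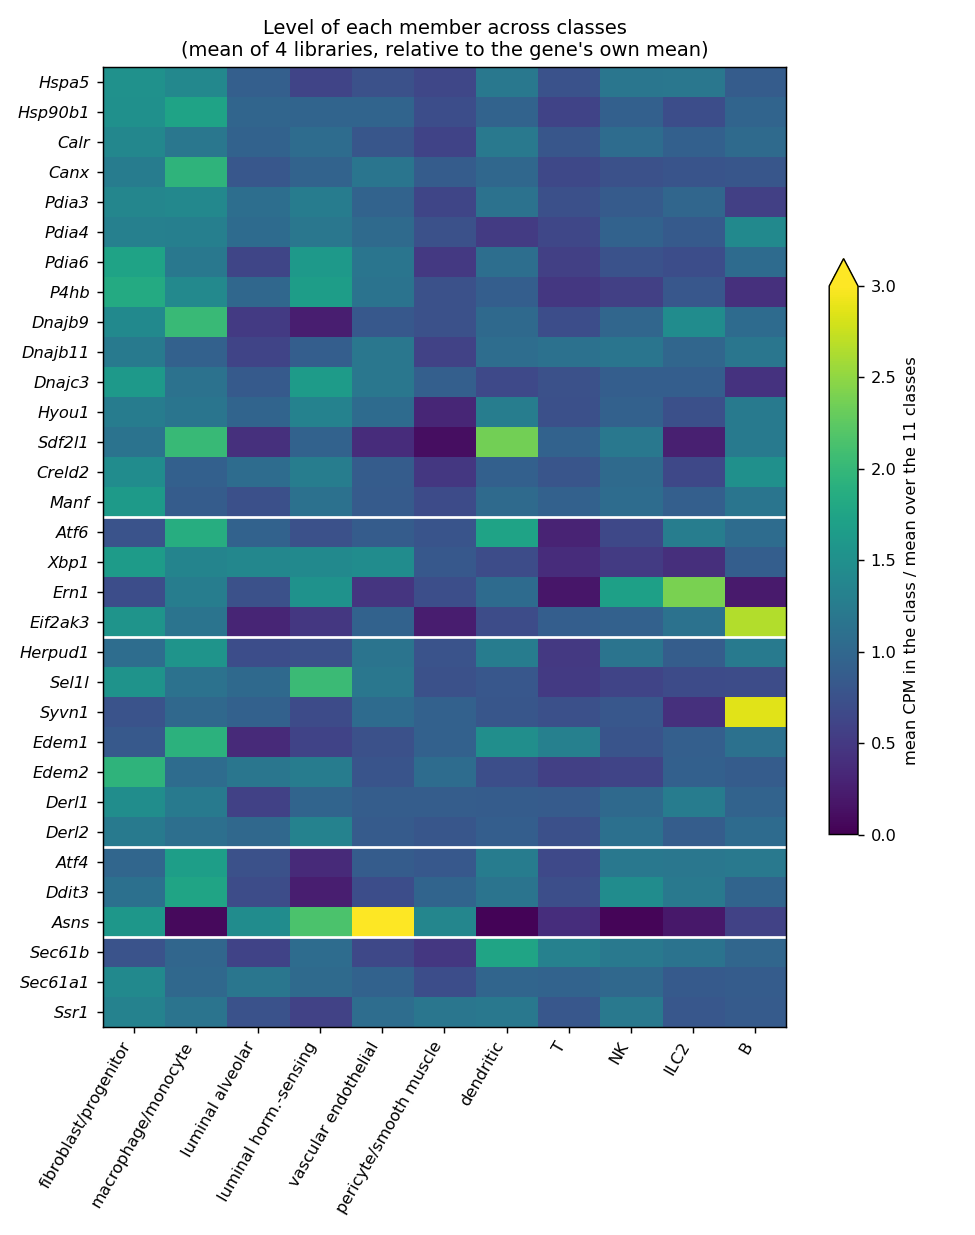
Level of each member in each tested class (rows, members by role with white lines between roles; columns, classes), as the mean CPM over the 4 libraries divided by that gene's mean over the 11 classes, from 0 (dark) to 3 or more (bright). Derl3, Trib3 and Chac1 are left out for their low level. Atf4 is brightest in macrophage-like cells, Syvn1 in B-like cells and Asns in endothelium.

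Roles differed in where they were high among the tested classes. Atf4, the factor that PERK signalling favours, was highest in macrophage-like cells at 411 ± 29.1 CPM, above dendritic-like cells at 308 ± 50.8 CPM, and lowest in hormone-sensing luminal-like cells at 87.2 CPM. Ddit3 followed the same extremes, with 114 ± 27.2 CPM in macrophage-like and 16.4 CPM in hormone-sensing luminal-like cells. Neutrophil-like cells, too few to test (39, 22, 19 and 14 cells), had Ddit3 at 878, 490, 346 and 428 CPM and Atf4 at 500, 512, 346 and 583 CPM, so that both had library values above the macrophage-like means. Asns, the asparagine synthetase that ATF4 induces, was instead highest in vascular endothelium at 28.3 ± 4.01 CPM, ahead of hormone-sensing luminal-like cells at 19.6 ± 1.16 CPM, and near absent from dendritic-like cells at 0.242 CPM. Syvn1, the ligase of ER-associated degradation, was highest in B-like cells at 59.3 ± 11.2 CPM against 21.7 ± 2.33 CPM in endothelium, the next class. Edem2, a mannosidase-related degradation factor, was highest in fibroblast-like cells at 73.3 ± 12.4 CPM, next to 47.4 ± 7.46 CPM in hormone-sensing luminal-like cells. Sec61b, a subunit of the channel, was highest in dendritic-like cells at 582 ± 32.2 CPM, followed by T-like cells at 439 ± 13.9 CPM. For these 5 genes (Atf4, Asns, Syvn1, Edem2, Sec61b) every library of the first class lay above every library of the second.

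Dnajb9, an ER co-chaperone of BiP that is a target of spliced Xbp1, ranged from 164 ± 34.7 CPM in macrophage-like to 19.98 ± 1.21 CPM in hormone-sensing luminal-like cells. Derl3, a degradation factor of secretory cells, was highest in B-like cells, at 2.68, 31.4, 8.07 and 27.6 CPM. The libraries with high Derl3, cold replicate 2 and room-temperature replicate 2, were also those with high plasma cell markers in that class, which summed to 525, 1884, 654 and 3677 CPM. Their part in the Derl3 level was not tested. Trib3 had no UMI in pericyte-like, NK-like and ILC2-like cells and a mean of 14.0 CPM in endothelium, and Chac1, a glutathione-degrading enzyme of the ATF4 branch, had a mean of at most 1.67 CPM in each of the 11 tested classes. Single libraries were higher, up to 6.27 CPM for Chac1 in pericyte-like cells, and neutrophil-like cells held 45.4, 85.3, 0 and 38.9 CPM.

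**Figure D2:**
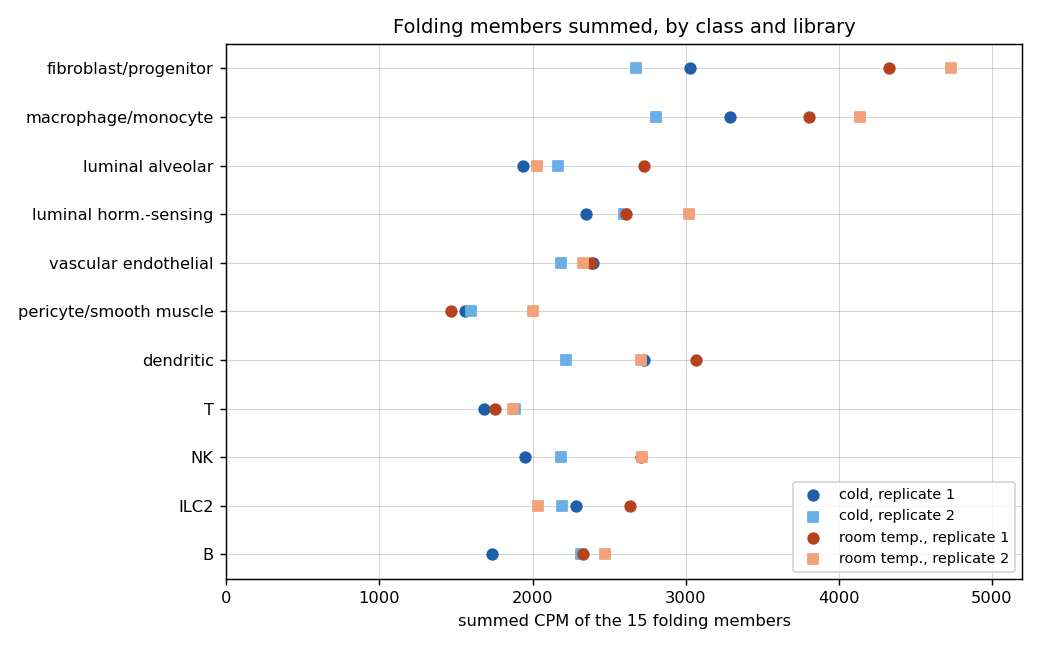
Summed CPM of the 15 folding genes in each tested class, 1 point per library (cold in blue, room temperature in red). In fibroblast-like, macrophage-like and NK-like cells both cold points lie below both room-temperature points. They also do so, by a narrow margin, in B-like and hormone-sensing luminal-like cells. In the other tested classes, among them endothelium and T-like cells, the groups overlap.

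Cold was compared with room temperature first in fibroblast-like cells. Of the 33 members tested there, 5 fell and 0 rose, where 1.9% of all 11594 genes tested fell and 1.32% rose. All 5 that fell were folding genes: the chaperones Hsp90b1 and Calr, the disulfide isomerases Pdia6 and Pdia4, and the co-chaperone Hyou1. The class held 719, 466, 1330 and 349 cells with 8434, 7763, 8983 and 11079 UMIs per cell. None of these calls was kept when either cold library was left out. Such a fit leaves 1 cold library, and fewer of all genes were called in it as well. Every log2 fold change stayed at -0.72 or lower for Hsp90b1, Calr, Pdia6, Pdia4 and Hyou1.

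Hsp90b1 encodes GRP94, the HSP90 of the ER lumen, which folds integrins and Toll-like receptors (chr10:86690209-86705509, minus strand, GRCm38). It stood at 341, 317, 671 and 760 CPM, with both room-temperature libraries far above either cold library. Its log2 fold change was -1.07 (SE 0.135, edgeR adjusted p = 0.0177). Calr, the calcium-binding lectin chaperone calreticulin (chr8:84841850-84846934, minus strand), stood at 389, 320, 643 and 840 CPM, with a log2 fold change of -1.01 (SE 0.179, edgeR adjusted p = 0.0407). The groups did not overlap, and the room-temperature libraries differed more from each other than the cold ones. Pdia6 (chr12:17266545-17284770, plus strand), an isomerase that also dampens IRE1, stood at 193, 177, 351 and 377 CPM and fell by 0.92 on the log2 scale (SE 0.125, edgeR adjusted p = 0.0208).

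Pdia4 (chr6:47796141-47813430, minus strand), another isomerase found with BiP, stood at 49.97, 39.3, 81.6 and 93.6 CPM and fell by 0.90 on the log2 scale (SE 0.156, edgeR adjusted p = 0.0395). Hyou1 (chr9:44379490-44392369, plus strand), a nucleotide exchange factor for BiP, stood at 11.9, 13.5, 22.3 and 24.1 CPM. These levels rest on 72, 49, 266 and 93 UMIs, the fewest of the 5, and the log2 fold change was -0.82 (SE 0.150, edgeR adjusted p = 0.0407). In each of the 5 genes both cold libraries were below both room-temperature libraries, without overlap.

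The other folding genes showed the same side but smaller or less certain differences, with 2 exceptions. Canx, the membrane-bound partner of calreticulin, stood at 171, 174, 250 and 297 CPM with a log2 fold change of -0.61 and an edgeR adjusted p of 0.0501. Pdia3, the isomerase that works with both lectin chaperones, stood at 306, 273, 472 and 478 CPM (log2 fold change -0.67, adjusted p = 0.0507). Both miss the threshold narrowly, and neither group overlapped the other. Hspa5 stood at 627, 524, 798 and 769 CPM, a smaller difference than for Hsp90b1, with a log2 fold change of -0.40 (SE 0.155, adjusted p = 0.226). Creld2, Sdf2l1, P4hb, Manf and Dnajb11, in that order, had log2 fold changes of -0.57, -0.67, -0.44, -0.40 and -0.24, again with no overlap between the groups.

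The exceptions were the J-domain co-chaperones Dnajb9 and Dnajc3. Dnajb9 was on the other side of zero at 145, 116, 112 and 88.7 CPM (log2 fold change 0.41, adjusted p = 0.278), and Dnajc3, the BiP co-chaperone p58IPK, was level at 228, 221, 224 and 222 CPM. In all, 13 of the 15 folding genes had both cold libraries below both room-temperature libraries, as did 29.6% of all genes tested, and 1 (Dnajb9) had them above, as did 21.6%. The median log2 fold change was -0.61 over the folding genes and 0.00098 over all genes tested.

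Sensors differed little. Atf6 had a log2 fold change of 0.14, Xbp1 of 0.17, Ern1 of 0.40 and Eif2ak3 of -0.12. Of the 4, 0 passed edgeR's test or an unadjusted p of 0.05. Among all 11594 genes tested in fibroblast-like cells, 2256 had an unadjusted edgeR p under 0.05. Xbp1, the factor that IRE1 activates by splicing, overlapped between the groups at 194, 165, 151 and 181 CPM.

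In the degradation arm 7 of 8 members were tested and 0 were called by edgeR, with 3 at an unadjusted p under 0.05 and a median log2 fold change of -0.22. Herpud1, a membrane organiser of the degradation complex, overlapped at 134, 112, 116 and 121 CPM. Edem2 was higher in both cold libraries at 86.9, 79.6, 67.6 and 59.0 CPM (log2 fold change 0.43, adjusted p = 0.150), and its relative Edem1 was lower in both at 33.6, 35.4, 45.1 and 47.6 CPM (log2 fold change -0.38, adjusted p = 0.141). The channel-like Derl1 and Derl2, the adaptor Sel1l and the ligase Syvn1 had log2 fold changes of -0.29, -0.24, -0.22 and -0.09, and Derl3 had too few UMIs to test.

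In the ATF4 branch all 4 tested members had positive log2 fold changes with a median of 0.30, while 0 passed edgeR's test and 1, Trib3, had an unadjusted p under 0.05. Trib3, a pseudokinase induced by ATF4 and CHOP, stood at 15.3, 12.7, 7.03 and 4.14 CPM from 93, 46, 84 and 16 UMIs. The cold libraries were above the room-temperature ones, with a log2 fold change of 1.28 (SE 0.295, adjusted p = 0.0732). Atf4 itself stood at 295, 231, 226 and 216 CPM (log2 fold change 0.30, adjusted p = 0.370), and without cold replicate 1 its log2 fold change was 0.07. Ddit3 overlapped at 84.4, 73.3, 75.5 and 54.6 CPM, and Asns did so at 20.8, 8.29, 12.3 and 16.3 CPM with the cold libraries at both extremes. The log2 fold change of Asns was -0.74 without cold replicate 1 and -0.01 with the crosswise pairing, so its sign was not stable. Chac1 had 0 or 1 UMI per library and was not tested.

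In translocation, Sec61b, Ssr1 and Sec61a1 had log2 fold changes of -0.57, -0.31 and -0.28, each without overlap, and 0 of the 3 was called by edgeR (2 at an unadjusted p under 0.05). Sec61b stood at 207, 194, 267 and 350 CPM (adjusted p = 0.102). DESeq2 called 6 members in fibroblast-like cells, all folding genes that were lower in cold: Hsp90b1, Calr, Canx, Pdia3, Pdia4 and Pdia6. Hyou1 had a DESeq2 adjusted p of 0.295. Among all 18331 genes fitted, DESeq2 called 215 lower and 173 higher in cold. With the replicate number as a block, 10 members fell and 1, Trib3, rose (edgeR adjusted p = 0.00782), where 607 of all 11594 genes fell and 433 rose. With the numbers paired crosswise, added after seeing the data, 0 members were called, where 40 of all genes fell and 30 rose.

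**Figure D3:**
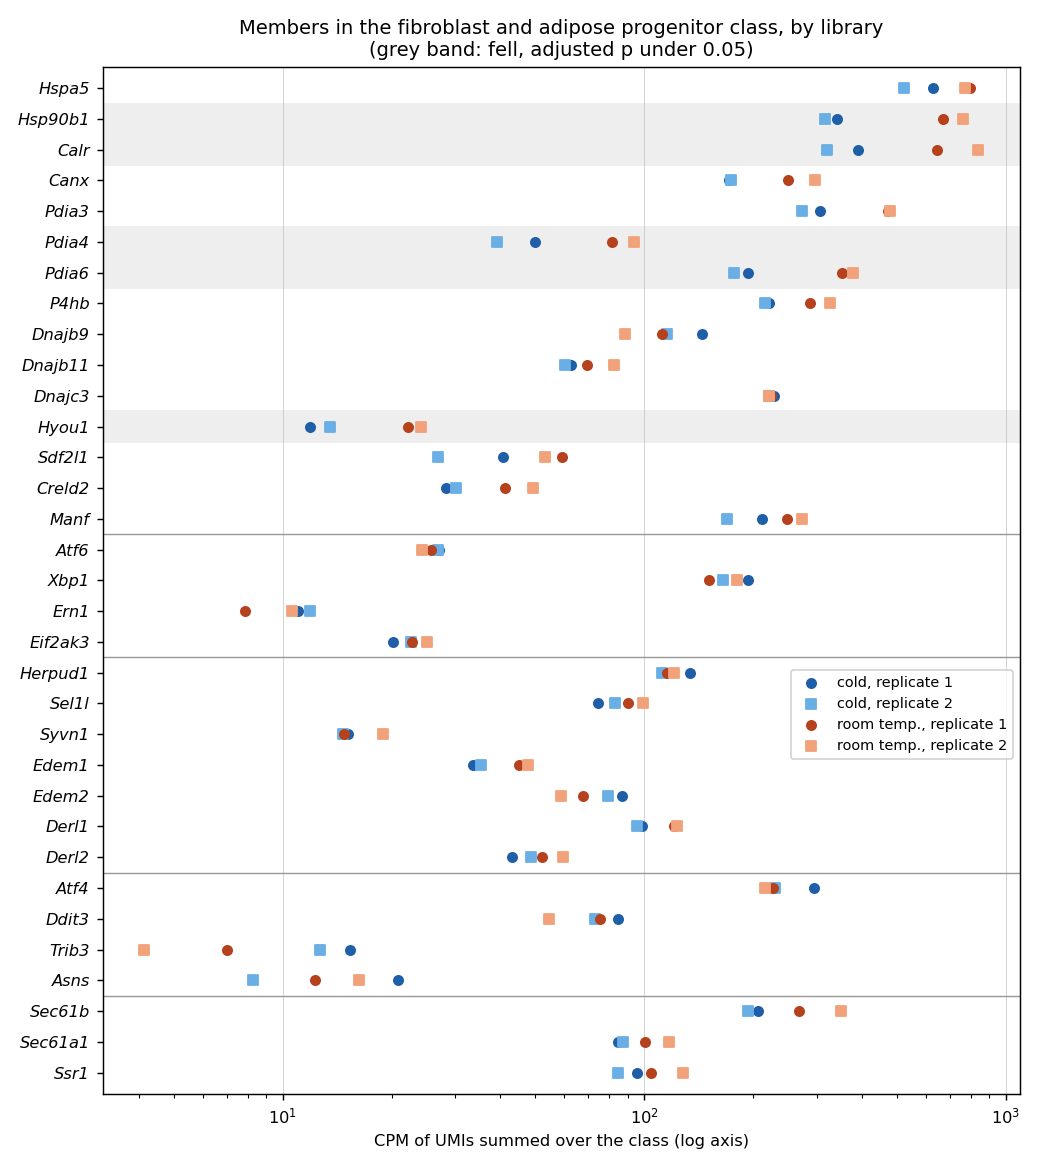
Level of the 33 tested members in fibroblast-like cells, 1 point per library on a log axis of CPM, members ordered by role, cold in blue and room temperature in red. Grey bands mark the 5 members that fell, all in the folding group, where the cold points lie left of the room-temperature points.

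The same roles were read in wider lists of 78 further genes. Of 16 further folding genes 3 fell and 0 rose: Fkbp14, a prolyl isomerase of the ER that acts on collagen, at 25.7, 22.4, 49.7 and 80.2 CPM (log2 fold change -1.34, edgeR adjusted p = 0.0395), and the disulfide isomerases Pdia5 (-1.14, adjusted p = 0.0368) and Txndc5 (-0.84, adjusted p = 0.0263). Of 8 further sensor genes 1 fell, Creb3l1, an ATF6-like membrane factor known for its role in collagen secretion, at 49.3, 65.0, 125 and 125 CPM (log2 fold change -1.10, adjusted p = 0.0177). In the further degradation, ATF4 and translocation genes (12, 20 and 20 tested) edgeR called 0, with 2, 2 and 7 at an unadjusted p under 0.05. Cytosolic heat shock genes went the opposite way to the ER chaperones, with 6 of 12 called and all 6 higher in cold. Hspa1a, the inducible HSP70, stood at 797, 650, 109 and 98.8 CPM (log2 fold change 2.84, edgeR adjusted p = 0.0060), and its copy Hspa1b (2.49) and the co-chaperone Dnajb1 (2.00) also rose. The near-identical sequences of Hspa1a and Hspa1b make the split between them uncertain.

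Several other measures moved with these differences. Immediate early genes, which tissue digestion can induce, summed to 22019, 17947, 12778 and 8950 CPM, and 3 of 12 rose. The 7 markers that named the class summed to 24796, 24418, 33551 and 29909 CPM, with Col1a1 at 1319, 2229, 6473 and 6973 CPM and Dcn at 17281, 14535, 13910 and 10846 CPM. Markers of alveolar luminal cells (6 of 6 detected) summed to 232 and 235 CPM in cold against 163 and 156 CPM, those of hormone-sensing luminal cells (7 of 7) to 175 and 157 against 140 and 97.2 CPM, and those of macrophages (8 of 8) to 36.8 and 34 against 68.6 and 51.7 CPM. Of 4 mature adipocyte markers 3 were detected, at sums of at most 0.829 CPM. The part of these measures in the chaperone differences was not tested.

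The cells behind the class also differed. Cluster 6, led by Cxcl13, held 443 and 233 of the fibroblast-like cells in cold but 65 and 4 at room temperature (4.89% and 1.15%), where cluster 5, led by Ptgs2 and Pi16, held 38.9% and 50.7% (10.0% and 23.8% in cold). Clusters are defined by expression, and the listed genes were among those clustered on, so these shares are a description. The comparison was therefore repeated within each cluster that had at least 20 cells in every library. A cluster can itself be a mix. At resolution 2, a finer clustering, a cluster led by Pi16 and Sema3c held 60, 87, 295 and 127 cells. Another, led by Ptgs2 and Has1, held 12, 27, 226 and 53 cells and was not tested. All 3 fibroblast-like clusters tested at that resolution held a called member.

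Within cluster 5 the folding genes were lower in cold as well. Hsp90b1 stood at 383, 353, 715 and 761 CPM (log2 fold change -1.05, edgeR adjusted p = 0.0139) and Calr at 414, 290, 716 and 858 CPM (-1.23, adjusted p = 0.0290). Pdia6 stood at 181, 193, 381 and 361 CPM (-1.03, adjusted p = 0.0233). Hspa5, not called over the whole class, fell here, from 935 and 838 CPM at room temperature to 518 and 495 CPM (-0.86, adjusted p = 0.0312). Sdf2l1, at 35.7, 20.6, 81.6 and 65.3 CPM, had the lowest log2 fold change of the folding genes there (-1.57) but an adjusted p of 0.0695. These were 4 members against 0.208% of all genes tested that fell, and 14 of the 15 folding genes had both cold libraries below both room-temperature ones, against 18.4% of all genes. In this cluster the immediate early sums overlapped between the groups, at 12540, 13898, 14650 and 10216 CPM. These sums are given for cluster 5 alone, and the part of these genes in its chaperone values was not tested. Cluster 5 lost all 4 calls with the replicate number as a block, where 7 of all 9138 genes fell and 7 rose. It also lost them without cold replicate 1, cold replicate 2 or room-temperature replicate 1. Each of the latter fits leaves 1 library in a group, and fewer of all genes were called in them as well.

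In cluster 8, led by Postn and Col3a1, Hsp90b1 (303, 294, 521 and 753 CPM, log2 fold change -1.004, edgeR adjusted p = 0.0149) and Pdia6 (155, 144, 281 and 394 CPM, -1.08, adjusted p = 0.0129) fell, where 1.19% of all genes did. Of its folding genes 10 of 15 were lower in both cold libraries, against 27.4% of all genes. In cluster 12, led by Cilp and Sfrp2, Hsp90b1 (383, 385, 779 and 797 CPM, -1.03, adjusted p = 0.0388) and Calr (361, 302, 682 and 790 CPM, -1.14, adjusted p = 0.0321) fell, where 0.206% of all genes did, and 13 of 15 folding genes were lower in both cold libraries, against 19.7%. In cluster 19, led by Gdf10, edgeR called 0 members and 0% of all genes fell, while 9 of 12 folding genes tested were lower in both cold libraries, against 25.8%. Calls in clusters 8 and 12 were lost without either cold library and without room-temperature replicate 2. Those in cluster 12 were also lost without room-temperature replicate 1. Each such fit leaves 1 library in a group, and the number of all genes called changed in them too. Cluster 6 had 4 cells in room-temperature replicate 2 and was not tested. Its folding sum was 3123, 2688, 4526 and 4067 CPM. Median log2 fold changes of the folding genes were -0.65, -0.48, -0.48 and -0.53 in clusters 5, 8, 12 and 19.

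**Figure D4:**
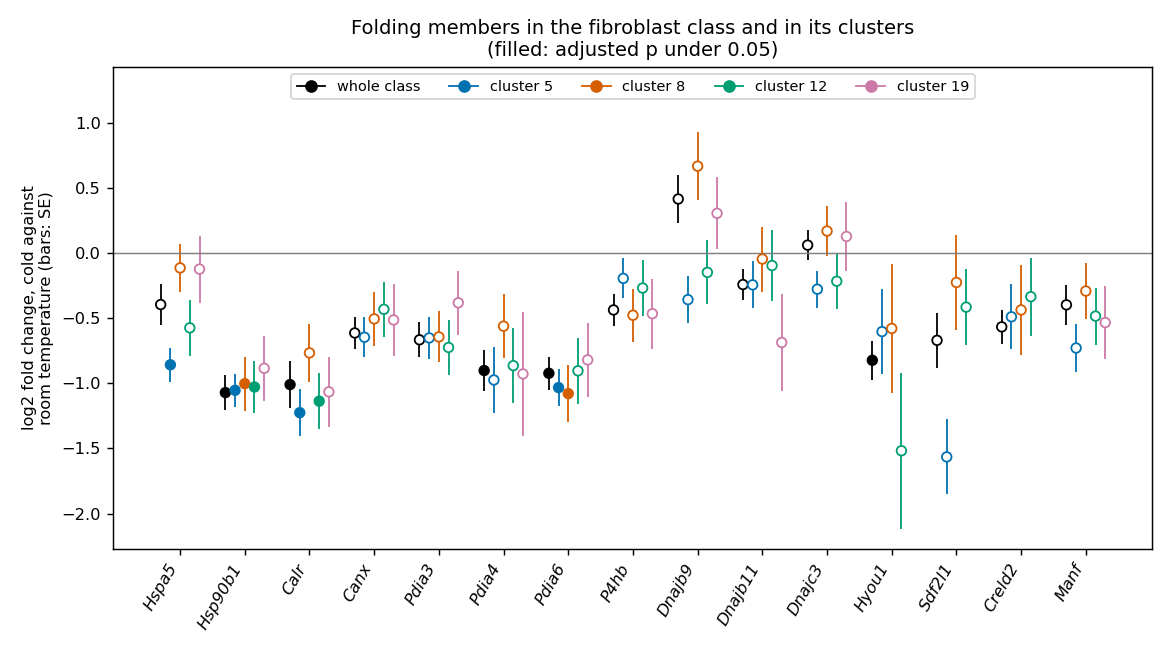
Log2 fold change, cold against room temperature, of each folding gene (horizontal axis) in the whole fibroblast-like class and within its clusters 5, 8, 12 and 19 (colours), with bars for the SE and filled points for called genes. Most points lie below 0, Dnajb9 and Dnajc3 lie on both sides, and cluster points are filled for Hspa5, Hsp90b1, Calr and Pdia6.

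The folding genes were also set beside the promoter letters. In fibroblast-like cells the 7 with a full ERSE had a median log2 fold change of -0.62 (-1.07 to 0.06, 3 fell), and the 6 with a promoter but no full ERSE had a median of -0.55 (-0.90 to 0.41, 1 fell). Within cluster 5 the medians were -0.86 with the element (4 fell) and -0.51 without it (0 fell). The median was lower with the element in 10 of the 11 tested classes and in all 4 fibroblast-like clusters tested, with the widest gap among classes in NK-like cells (-0.40 against 0.11), and it was higher in alveolar luminal-like cells (-0.17 against -0.31). The classes share libraries and genes. These are descriptions of a few genes each, with no test. Hsp90b1, which carries both sites shown above, had the lowest value, and Dnajc3, which also holds a full ERSE, had the highest of the 7.

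Alveolar luminal-like cells, the milk-lineage progenitors of the mammary ducts, were the other class with called members, 1 in each direction of 25 tested. Dnajb9 (chr12:44205559-44210326, minus strand) stood at 25.1, 23.4, 60.8 and 55.5 CPM and fell, with a log2 fold change of -1.32 (SE 0.346, edgeR adjusted p = 0.0441), where 0.884% of all genes tested fell. Herpud1 (chr8:94386438-94395377, plus strand) stood at 90.9, 133, 47.6 and 46.6 CPM and rose, with a log2 fold change of 1.14 (SE 0.305, edgeR adjusted p = 0.0494), where 1.86% rose. In both genes the groups did not overlap. Hspa5 (273, 354, 611 and 403 CPM, -0.79, adjusted p = 0.175), Xbp1 (205, 154, 114 and 112 CPM, 0.57, adjusted p = 0.307) and the translocon-associated Ssr1 (69.6, 75.5, 42.3 and 48.1 CPM, 0.55, adjusted p = 0.398) did not pass.

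Over all 25 members the median log2 fold change was -0.11, and 15 overlapped between the groups. Of all 6225 genes tested, 1793 had both cold libraries above both room-temperature libraries and 1155 had them below. Of the wider ATF4 genes, the stress-induced chromatin factor Nupr1 rose, at 607, 393, 177 and 126 CPM (log2 fold change 1.65, edgeR adjusted p = 0.0027). The heat shock gene Hspd1, a mitochondrial chaperonin, fell, at 102, 99.0, 272 and 178 CPM (-1.23, adjusted p = 0.0274). The class was small and uneven in depth, with 110, 65, 39 and 85 cells and 4703, 5907, 9694 and 15907 UMIs per cell. Its own markers summed to 16898, 16053, 11064 and 11411 CPM, its heat shock genes to 4827, 5469, 8860 and 6790 CPM, and its immediate early genes to 5194, 4555, 7419 and 5812 CPM, so that these moved with Dnajb9 and Herpud1 and their part was not tested. Both calls were lost with DESeq2, with the replicate number as a block, with doublets kept, and without either cold library. That of Herpud1 was also lost with a looser cell filter and without room-temperature replicate 2. DESeq2 called 46 of all 14979 genes higher and 12 lower in cold. The block called 100 and 57 of 6225, doublets kept 100 and 48 of 6377, and the looser filter 126 and 64 of 6445.

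In macrophage-like cells (macrophages and monocytes) edgeR called 0 of 31 members, where 0.497% of all genes tested were called. A total of 8 had an unadjusted p under 0.05, as did 1284 of all 11074 genes tested. DESeq2 called 2, Hspa5 and Hsp90b1, both lower in cold, where it called 134 of all genes lower and 33 higher. Hsp90b1 stood at 510, 472, 658 and 771 CPM (log2 fold change -0.55, adjusted p = 0.204) and Hspa5 at 558, 472, 742 and 744 CPM (-0.54, adjusted p = 0.219), each without overlap. Dnajb9 stood at 148, 126, 206 and 177 CPM (-0.49, adjusted p = 0.271). In all 14 of the 31 had both cold libraries lower, against 20% of all genes, among them 8 of the 15 folding genes, whose median log2 fold change was -0.32. With the replicate number as a block, Hspa5, Hsp90b1, Dnajb9 and Edem1 fell and Herpud1 rose, with edgeR adjusted p of 0.0209, 0.0212, 0.0361, 0.0445 and 0.0462. With that block 444 of all 11074 genes fell and 231 rose, and with the numbers paired crosswise 3 fell and 1 rose.

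Different clusters led this class in the 2 groups: cluster 1, led by Cd163 and Lyve1, held 338 and 158 cells in cold and 521 and 199 at room temperature, while cluster 4, led by Ccl8 and Cd209g, held 62 and 57 against 556 and 285. Within single clusters, a comparison added after seeing the data, members were called that the pooled class did not show. In cluster 1, where 3.06% of all genes were called, 4 members fell and 1 rose. Hsp90b1 stood at 442, 411, 697 and 956 CPM (log2 fold change -0.89, edgeR adjusted p = 0.0032) and Hspa5 at 555, 427, 794 and 844 CPM (-0.68, adjusted p = 0.0239). Canx stood at 330, 316, 451 and 570 CPM (-0.59, adjusted p = 0.0409), and the degradation gene Edem1 at 61.2, 60.4, 103 and 111 CPM (-0.75, adjusted p = 0.0160). Herpud1 rose, at 246, 311, 174 and 160 CPM (0.75, adjusted p = 0.0095), the same direction as in alveolar luminal-like cells.

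In cluster 7, led by Lyz1, Ear2 and Ccr2, 2 members fell and 2 rose, where 3.97% of all genes were called. Hspa5 stood at 471, 442, 627 and 616 CPM (log2 fold change -0.46, edgeR adjusted p = 0.0362) and Calr at 409, 362, 492 and 583 CPM (-0.49, adjusted p = 0.0495). Xbp1 rose, at 253, 205, 103 and 148 CPM (0.87, adjusted p = 0.0123), and so did Ddit3, the pro-apoptotic factor CHOP, at 94.4, 101, 63.1 and 41.5 CPM (0.88, adjusted p = 0.0340). In each of these 4 the groups did not overlap. Herpud1 was not higher in cold in cluster 7, at 61.6, 55.7, 65.7 and 74.8 CPM (-0.27, adjusted p = 0.568), nor was Xbp1 in cluster 1, at 141, 115, 148 and 150.1 CPM (-0.16, adjusted p = 0.738). In clusters 4 and 15 edgeR called 0 members, where 0.23% and 0.66% of all genes were called.

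In the lymphocyte-like classes edgeR called 0 members: 0 of 33 in T-like cells (2.35% of all genes called, 7 members at an unadjusted p under 0.05), 0 of 28 in NK-like cells (2.14%, 5 members), 0 of 31 in B-like cells (0%, 2 members) and 0 of 15 in ILC2-like cells (0%, 1 member). Of all genes, an unadjusted edgeR p under 0.05 was reached by 1960 of 9930 in T-like and 682 of 5010 in NK-like cells. In B-like cells 371 of 7623 genes reached it, and in ILC2-like cells 210 of 2091. DESeq2 called 0 members in each of the 4 classes. The T-like member with the largest difference at a mean of at least 20 CPM was Sdf2l1, a BiP co-factor, at 40.3, 53.3, 24.8 and 30.6 CPM (log2 fold change 0.64, adjusted p = 0.102), followed by Herpud1 at 40.8, 50.5, 68.5 and 62.1 CPM (-0.60, adjusted p = 0.0595) and Xbp1 at 34.5, 34.9, 41.7 and 50.3 CPM (-0.50, adjusted p = 0.130). Herpud1 thus lay on the opposite side of zero in T-like cells from alveolar luminal-like cells, a difference that was not tested. Of the wider folding genes, Txndc11 and Serp1 fell in T-like cells, with log2 fold changes of -0.85 and -0.67 (edgeR adjusted p = 0.0379 and 0.0258). Of the cytosolic heat shock genes 2 of 12 rose in T-like cells, Hspa1a at 291, 257, 55.1 and 13.6 CPM (log2 fold change 3.01, edgeR adjusted p = 0.0136) and Hspa1b (2.54, adjusted p = 0.0050). In T-like cells 2 of 12 immediate early genes rose. The part of either list in the member values was not tested.

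Within T-like cluster 0, led by Cd8b1 and likewise tested after seeing the data, where 3.32% of all genes were called, Hsp90b1 (105, 114, 157 and 168 CPM, -0.64, edgeR adjusted p = 0.0212) and Calr (186, 199, 291 and 292 CPM, -0.66, adjusted p = 0.0187) fell. The folding genes there summed to 1196, 1222, 1527 and 1541 CPM. Cluster 13, led by Tnfrsf4 and Ctla4, held 91, 91, 64 and 107 cells, and its folding sum was 1887, 1896, 2118 and 2006 CPM. Cluster 23, led by Pclaf and Rrm2, held 42, 58, 17 and 43 cells, with a mean folding sum of 2884 CPM. Cluster 36, led by Ifit3 and Ifit1, held 3, 61, 1 and 2 cells. The part of this mix in the T-like values was not tested. In NK-like cells the largest differences were those of Ern1 (16.7, 11.6, 38.2 and 32.7 CPM, -1.29, adjusted p = 0.213), of the secreted ER factor Manf (100, 130, 171 and 184 CPM, -0.57, adjusted p = 0.196) and of Hsp90b1 (224, 283, 357 and 414 CPM, -0.56, adjusted p = 0.117). Other measures moved with them in NK-like cells: the 6 markers that named the class summed to 4802, 6636, 8700 and 10016 CPM, most of it Gzma, and T cell markers (7 of 7 detected) to 1138, 829, 734 and 493 CPM. The heat shock genes Hspa1a (367, 310, 73.9 and 12.5 CPM, log2 fold change 3.22, edgeR adjusted p = 4.9e-07), Hspa1b (2.88) and Hsp90aa1 (0.97) rose, 3 of 10 tested, as did 4 of 12 immediate early genes. Their part in the NK-like member values was not tested.

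In B-like cells Eif2ak3 stood at 24.1, 28.2, 45.3 and 56.8 CPM (-0.90, adjusted p = 0.901), and Calr stood at 312, 355, 467 and 506 CPM (-0.52). Hsp90b1 overlapped at 183, 380, 347 and 431 CPM (-0.46), and its log2 fold change was -0.09 without cold replicate 1 and -0.97 without cold replicate 2. In ILC2-like cells Derl1 stood at 51.9, 74.8, 103 and 146 CPM from 7, 11, 15 and 13 UMIs (-0.92, adjusted p = 0.517). Hsp90b1 stood at 163, 211, 314 and 293 CPM (-0.71, adjusted p = 0.452) and Canx at 96.3, 136, 164 and 158 CPM (-0.48), each without overlap. Mast cell markers (5 of 5 detected) summed in the ILC2-like class to 5283, 0, 24812 and 7377 CPM, above the class's own 5 markers (889, 673, 1558 and 924 CPM) in 3 of 4 libraries. Both sums were lower in the cold libraries. T cell markers (7 of 7 detected) summed to 1534, 1877, 1251 and 1363 CPM, higher in both cold libraries. They exceeded the class's own markers in 3 of 4 libraries. The part of these marker sums in the member values was not tested.

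Dendritic-like cells had 0 of 31 members called by edgeR (0.29% of all genes, 3 members at an unadjusted p under 0.05, 0 by DESeq2). Of all 8286 genes tested, 833 had an unadjusted edgeR p under 0.05. Ddit3 stood at 117, 82.2, 56.6 and 42.8 CPM (log2 fold change 0.99, adjusted p = 0.204), Derl1 stood at 56.7, 48.4, 72.6 and 81.3 CPM (-0.56) and Hsp90b1 at 318, 234, 405 and 366 CPM (-0.49), each without overlap. Without cold replicate 2 the log2 fold change of Hsp90b1 was -0.245, and without cold replicate 1 it was -0.747 with an adjusted p of 0.0422. Atf3, a stress factor downstream of ATF4 in the wider list, rose there, at 1115, 829, 400 and 370 CPM (1.33, edgeR adjusted p = 0.0234). Atf3 is also an immediate early gene, and 2 of 12 listed immediate early genes rose in dendritic-like cells, to sums of 13479 and 12472 CPM against 8615 and 8674 CPM. Heat shock genes rose there as well, 5 of 11 tested, among them Hspa1a (2798, 2428, 422 and 349 CPM, log2 fold change 2.76, edgeR adjusted p = 0.00033), Hspa1b (2.78) and Hsph1 (1.72). Dendritic cell markers (6 of 6 detected) summed to 1258, 1274, 1516.5 and 1833 CPM there, and macrophage markers (8 of 8) to 440, 314, 581 and 624 CPM. T cell markers (7 of 7) summed to 379, 500, 146 and 233 CPM. Cluster 33, led by Ccl22 and Apol7c, held 8, 28, 16 and 32 cells. Its mean folding sum was 1253 CPM, against 2885 and 2911 CPM in clusters 17 and 18. The part of these lists, markers and clusters in the dendritic-like member values was not tested.

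In vascular endothelium edgeR called 0 of 33 members, where 0.0101% of all genes were called (3 members at an unadjusted p under 0.05, 0 by DESeq2). Of all 9882 genes tested there, 1212 had an unadjusted edgeR p under 0.05. At a mean of at least 20 CPM the largest differences were those of Dnajb9 at 81.3, 80.2, 53.9 and 50.4 CPM (log2 fold change 0.65, adjusted p = 0.145), Ddit3 at 62.9, 48.3, 54.5 and 19.6 CPM (0.65, adjusted p = 0.540) and Atf4 at 224, 275, 177 and 177 CPM (0.51, adjusted p = 0.239). Ddit3 overlapped between the groups, and its log2 fold change was 0.09 once room-temperature replicate 2 was left out and 1.52 (adjusted p = 0.0043) once room-temperature replicate 1 was. Hormone-sensing luminal-like cells had 0 of 33 members called, where 0.00794% of all genes were called (0 members by DESeq2). They had 2 members at an unadjusted edgeR p under 0.05, with 974 of all 12598 genes. Their largest differences were those of Herpud1 at 129, 73.6, 66.0 and 61.4 CPM (0.70, adjusted p = 0.648), Ern1 at 12.9, 20.2, 19.1 and 36.5 CPM (-0.66, adjusted p = 0.665) and Hsp90b1 at 258, 305, 368 and 415 CPM (-0.44, adjusted p = 0.633). Ern1 overlapped, with log2 fold changes from -1.03 to -0.24 when 1 library was left out, the latter without room-temperature replicate 2, and Herpud1 was at 0.22 without cold replicate 1. The cells behind the hormone-sensing class differed between libraries. Cluster 3, led by Defb1 and Ido1, held 480, 387, 130 and 103 cells. Cluster 16, led by Fgb and Upk3a, held 22, 71, 181 and 22, and cluster 25, led by Pbk and Upk3a, held 2, 29, 100 and 6. The part of this mix in the class values was not tested. The luminal clusters that carried both luminal marker sets, summed and tested alone, had 0 of 34 members called, with 0% of all genes. Pericyte-like and smooth muscle-like cells had 0 of 18 called, with 0% of all genes (2 members at an unadjusted p under 0.05, 0 by DESeq2). Of all 3380 genes tested in that class, 225 had an unadjusted edgeR p under 0.05. Dnajb9 stood there at 100, 59.5, 41.7 and 37.6 CPM (1.07, adjusted p = 0.693), Calr at 163, 202, 257 and 326 CPM (-0.63) and Xbp1 at 104, 107, 86.9 and 50.2 CPM (0.59), from 8 to 25 UMIs per library for Xbp1.

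**Figure D5:**
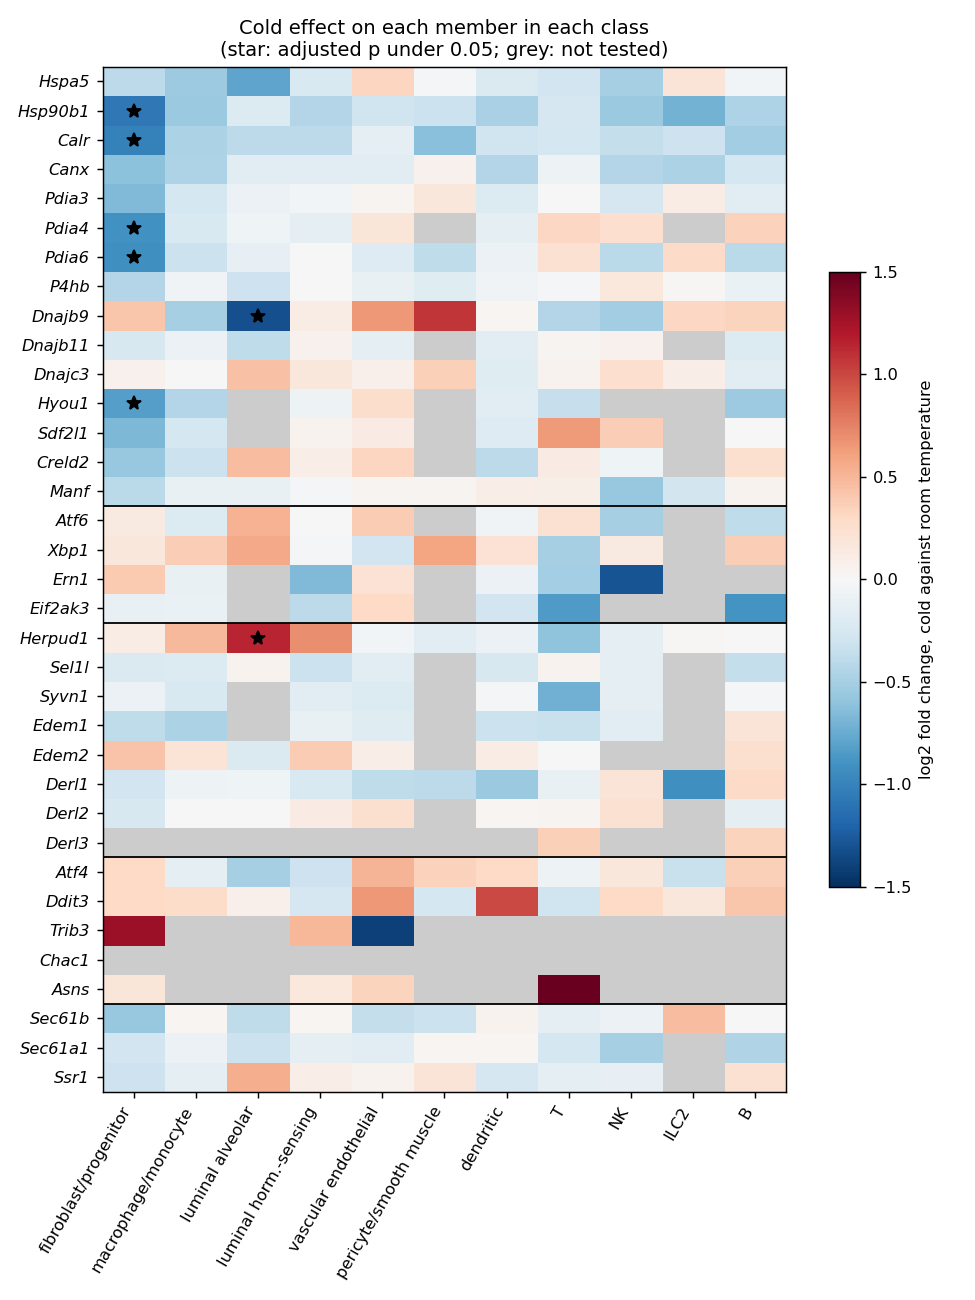
Log2 fold change, cold against room temperature, of each member (rows, by role) in each tested class (columns), from blue (-1.5, lower in cold) to red (1.5), with stars for called genes and grey for genes not tested. Hsp90b1 and Calr are on the cold-lower side in all 11 columns, and stars appear in the fibroblast-like column (5) and in the alveolar luminal-like column (2).

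Read across classes, 2 members kept 1 sign in all 11. Hsp90b1 and Calr had negative log2 fold changes in 11 of 11 classes, from -1.07 to -0.21 and from -1.01 to -0.15, with both cold libraries lower in 7 and 9 of them. Canx was negative in 10. Of the 1509 genes tested in all 11 classes, 20 (1.33%) were negative in all and 10 (0.663%) were positive in all. The classes come from the same 4 libraries, so that they are not independent of each other. Syvn1 was negative in all 8 classes in which it was tested, and Asns positive in all 4 of its classes, with its largest value in T-like cells (5.78, 5.28, 0.993 and 2.42 CPM, log2 fold change 1.49, adjusted p = 0.141). Dnajb9 had both signs, with 4 negative and 7 positive classes, from -1.32 to 1.07.

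The difference between classes in the cold effect was tested itself, with the library as a block. Between vascular endothelium and fibroblast-like cells 2 members differed, where 0.942% of all genes did. Pdia4 had a more positive effect in endothelium by 1.08 on the log2 scale (SE 0.21, edgeR adjusted p = 0.0326). Trib3, at 7.21, 8.20, 17.7 and 23.0 CPM in endothelium and thus lower in cold there, differed by -2.73 (SE 0.51, adjusted p = 0.0272) from fibroblast-like cells, where it was higher in cold. Between macrophage-like and fibroblast-like cells 1 member differed, Dnajb9, by -0.99 (SE 0.15, adjusted p = 0.0458), where 0.439% of all genes did. Fibroblast-like against hormone-sensing luminal-like cells (0.0145% of all genes) and alveolar against hormone-sensing luminal-like cells (0.0885%) gave 0 members each by edgeR. For Dnajb9 in the latter pair the difference was -1.48 (edgeR adjusted p = 0.213). Both pairs with the hormone-sensing class rest on its uneven mix of clusters, given above. Without cold replicate 1 or cold replicate 2 the adjusted p of all 3 called differences rose above the threshold, to 0.319 and 0.168 for Pdia4, 0.311 and 0.0829 for Trib3, and 0.532 and 0.220 for Dnajb9, and with the replicate number as a block that of Pdia4 was 0.129.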

How the data were processed

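The authors deposited raw UMI counts for each gene and barcode; per the file headers and the submitters' processing notes, the counts were made with Cell Ranger 3.0.2 against mm10/GRCm38. Seurat is named in those notes without a version, and the sources used here do not give the annotation release. Members and lists were chosen with earlier results of these data known.

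Cells needed 500 genes or more and a mitochondrial share below 15%. Simulated-doublet scores removed the highest-scoring cells (74 to 239 per library, in proportion to its size), which left 15197 cells. Leiden clustering (2000 variable genes, 30 components, 15 neighbours, resolution 1; Python 3.11.15, scikit-learn 1.9.0, igraph 0.11.9, leidenalg 0.10.2) gave 44 clusters. A cluster was named where at least 3 markers of a type were in at least 10% of its cells and exceeded the median cluster by a log2 of 1 (pseudocount 5 CPM). Clusters with 2 marker sets (1186 cells) were left out of the classes.

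Raw counts were summed per library and class, and cold was tested against room temperature with edgeR 4.0.16 in R 4.3.3 (filterByExpr, TMM, two-sided quasi-likelihood test, Benjamini-Hochberg over all genes of the class). A class needed 20 cells in each library. The differences between classes were fitted in 1 model with the library as a block. The test was checked on simulated counts. Alternatives were a replicate block, RLE scaling, DESeq2 1.42.0, omission of the low-count filter, doublets kept, a looser cell filter (200 genes, 25%), resolution 2, clustering without the listed genes, levels as means over cells, and each library left out. Basal, neutrophil, Schwann and lymphatic classes had too few cells and were not tested. The neutrophil-like levels given above are a description. With 2 libraries against 2, a permutation of a single value cannot go below an exact two-sided p of 0.333, so none was used.

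Values in every library are given for called members, otherwise for the 3 members with the largest absolute log2 fold change at a mean of at least 20 CPM. Of the wider lists up to 4 called genes per list, and of the heat shock genes up to 3, are named by the same measure. Gene positions come from GENCODE on GRCm38 and promoters from RefSeq on GRCm38.p6.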

Additional observations from a re-analysis of the deposited data

Results flagged for a closer look

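The cold effect on 3 members differed between classes by the test of the difference itself, edgeR's quasi-likelihood test with the library as a block. Pdia4 differed by 1.08 on the log2 scale (SE 0.21, adjusted p = 0.0326) between vascular endothelium and fibroblast-like cells, and Trib3 by -2.73 (SE 0.51, adjusted p = 0.0272) in the same pair. Dnajb9 differed by -0.99 (SE 0.15, adjusted p = 0.0458) between macrophage-like and fibroblast-like cells. The Trib3 levels rest on 93, 46, 84 and 16 UMIs in fibroblast-like cells and on 11, 9, 27 and 41 UMIs in vascular endothelium (cold replicates 1 and 2, room-temperature replicates 1 and 2).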

How the results depend on the processing

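In fibroblast-like cells the 5 called members became 12 with no low-count filter and 0 to 7 with 1 library left out (0 without either cold library). With no filter 868 of 18331 genes fell and 599 rose. The replicate block gave 11 members, where 607 of all 11594 genes fell and 433 rose. Pairing the numbers crosswise, added after seeing the data, gave 0, where 40 of all genes fell and 30 rose. The labels do not say whether libraries of the same number belong together. Correlations of same-numbered deviations ran from -0.337 to 0.322 over classes. With 2 libraries a group they cannot decide it. With the replicate block, 121 genes fell and 136 rose of 5010 in NK-like cells, and 483 and 333 of 9930 in T-like cells. In macrophage-like cells 444 fell and 231 rose of 11074, and in fibroblast cluster 8 145 and 155 of 8471. Crosswise, 126 fell and 233 rose of 9882 in endothelium. Called members with the block were 2 in NK-like, 2 in T-like, 5 in macrophage-like and 0 in alveolar luminal-like cells. They were 0 in fibroblast cluster 5, 4 in cluster 8, and 1 in the endothelium-fibroblast difference, and crosswise 1 in endothelium. With no filter, 463 genes fell and 456 rose of 16785 in T-like cells, and 175 and 135 of 15126 in dendritic-like cells. In macrophage-like cells 457 fell and 178 rose of 17350, and in endothelial cells 231 and 355 of 16156. Called members with no filter were 4 in T-like, 1 in dendritic-like, 4 in macrophage-like and 2 in endothelial cells, and 2 in the macrophage-fibroblast difference. DESeq2 gave 0 in alveolar and 2 in macrophage-like cells, doublets kept gave 0 and the looser cell filter 1 in alveolar cells. Leaving out 1 library keeps only 1 in its group. It changed the members called in T-like, dendritic-like, alveolar, macrophage-like and endothelial cells, and in clusters 5, 8, 12 and 19. It also changed those called in the endothelium-fibroblast and macrophage-fibroblast differences. The number of all genes called changed in these fits as well. The summed CPM of folding members in T was 1621 as a mean over cells. With 1 library left out, log2 fold changes in fibroblast-like cells ran from -0.067 (without cold replicate 1) to 0.265 for Herpud1, from -0.243 to 0.03 (without room-temperature replicate 2) for Syvn1 and from -0.736 (without cold replicate 1) to 0.662 for Asns, which was -0.014 with the crossed block. None of the 3 genes was called there. Of all values under these alternatives, 987 kept direction and side of the threshold, 58 were weaker, 47 stronger and 4 reversed. The ILC2-like class was not formed with doublets kept, the looser filter or clustering without the listed genes. Causes were not tested. With 2 libraries a group and 39 cells in the smallest alveolar library, few UMIs limit the genes under about 20 CPM.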
